A study of Mus musculus with 4 samples.

Results

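The genes described here encode the machinery that buds, steers, tethers and fuses transport vesicles, together with the vacuolar proton pump that acidifies the compartments along the way. The rule takes the probe sets annotated with a single gene symbol of the Rab, Arf, Vamp, Stx, Snap, Stxbp, Nap, Nsf, Vps, AP adaptor, clathrin, exocyst, synaptotagmin or Atp6 families, and uses names, not values. This gave 187 of 12422 probe sets, for 142 of the 8251 genes that the array reads by a single-gene probe set. Some members carry a family name without the family's task. Rab10os and Rab26os are transcripts named for the strand opposite a Rab gene, and Vps72 encodes a chromatin protein.

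Total RNA of whole seminal vesicles from 4 mice was measured on Affymetrix Mu74AV2 GeneChips, 1 array per mouse. All were wild type for Nkx3.1 (Nkx3.1 +/+), of the C57Bl/6J strain and 15 months old, and the labels list no treatment. They come from work on NKX3.1, G9a and UTY in prostate differentiation, by the title of the series. With 1 group there was no contrast between genotypes or ages. The data show which of these genes gave signal in the gland and how far their values spread over its 4 mice. With 1 array per mouse, differences between mice and between arrays cannot be told apart. The labels give each array its own sample number. The p-values concern only these samples, and ask whether a probe set's variance exceeds that typical of probe sets at like signal. In whole tissue, fewer cells of a type and less RNA per cell cannot be told apart.

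The seminal vesicle epithelium makes and exports large amounts of protein, which pass from the endoplasmic reticulum through the Golgi apparatus into secretory granules that fuse with the apical membrane. Coats such as clathrin and its adaptors, recruited by Arf GTPases, shape the vesicles, Rab GTPases give them identity, tethers catch them, and SNARE proteins on vesicle and target zip together to fuse the membranes. The vacuolar ATPase couples ATP hydrolysis in its outer V1 sector to proton transport through its membrane V0 sector and keeps the lumen of granules, endosomes and lysosomes acid.

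Values are given per probe set on the log2 scale, the arrays' medians ran from 4.95 to 4.98, and Pearson's r across probe sets of the 6 pairs of arrays ran from 0.992 to 0.994. A probe set was taken to be above the background range when it exceeded, on every array, the 90th percentile of 109 probe sets that read 97 other-organ genes (liver, pancreas, retina and the like), a limit of 6.11, 5.97, 6.08 and 6.17 in mice 1 to 4. Mice are numbered only to name them. Probes bind with different strength, so the values of different probe sets were not ranked against each other. The labelled tissue was checked against its markers: 14 of 20 measured luminal epithelial genes were above the range, among them the secretory protein gene Svs4 at 12.95, 13.00, 12.99 and 13.01, and so were 10 of 13 smooth muscle genes.

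Of the 142 traffic genes, 65 (45.8%) were above the background range, where 29.5% of all genes on the array were. By probe sets the count was 68 of 187 (36.4%), against 24.2% of all probe sets. A further 13 genes exceeded the limit on 1 to 3 arrays, and 64 on none. The roles differed in how many members gave signal, from 12 of 15 for the proton pump and 4 of 6 for the Arf GTPases to 6 of 20 for the SNAREs and 4 of 18 for their partners. No test was made between roles. A gene below the limit is not shown to be silent, since the limit is strict and depends on the probe.

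**Figure D1:**
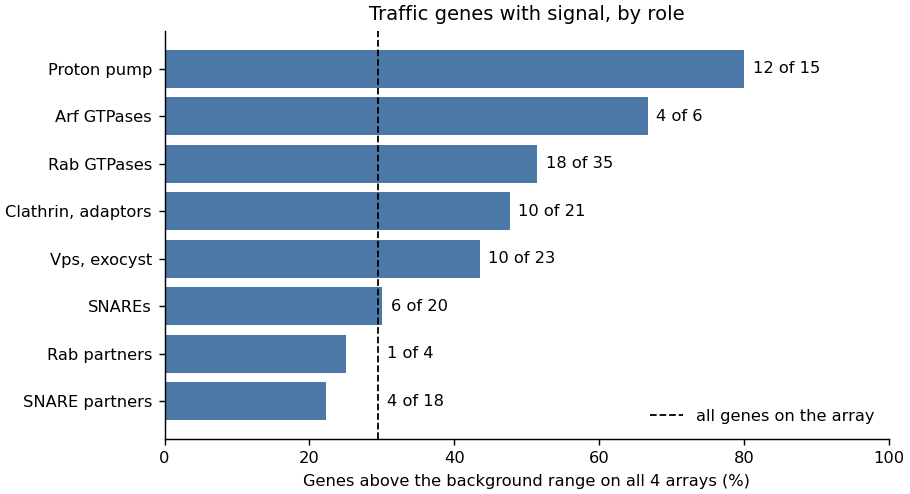
Bars give, for each role, the percentage of measured genes above the background range on all 4 arrays, with the counts beside them, and the dashed line is the share of all genes on the array (29.5%). The proton pump (12 of 15) and Arf GTPases (4 of 6) lie furthest to the right of the line, and the SNARE partners (4 of 18) lie to its left.

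Among the proton pump genes, the V0 sector gave signal for all 6 measured subunits, the V1 sector for 5 of 7 and the accessory proteins for 1 of 2. Of the V1 sector, Atp6v1a, the catalytic subunit, had 6.55, 6.64, 6.45 and 6.52 in mice 1 to 4, and Atp6v1b2, its partner in the ATP-binding head, had 7.21, 7.13, 6.89 and 7.23. Both lay above the limit in every mouse. The stalk subunit Atp6v1g1 had 7.36, 7.92, 7.21 and 7.41, with mouse 2 above the rest. In the V0 sector Atp6v0a1, an isoform of the large subunit a, had 6.83, 7.23, 6.71 and 6.86, again highest in mouse 2. Atp6v0e2, a small membrane subunit, had 8.79, 8.80, 8.76 and 8.71 (SD 0.04, n = 4), and its relative Atp6v0e had 7.42, 7.41, 7.31 and 7.32, both nearly level. The accessory subunit gene Atp6ap1 had 7.33, 7.64, 7.19 and 7.51.

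The V1 subunits not above the range, Atp6v1c1 and Atp6v1h, had means of 5.92 and 6.06 and exceeded the limit on 1 array each. Atp6ap2, the other accessory protein, had 4.11, 4.46, 4.11 and 4.09 and stayed below it in every mouse. These 3 were named after their values were seen. Forms of the pump genes that some acid-secreting epithelia prefer, such as Atp6v1b1, were not analysed here.

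**Figure D2:**
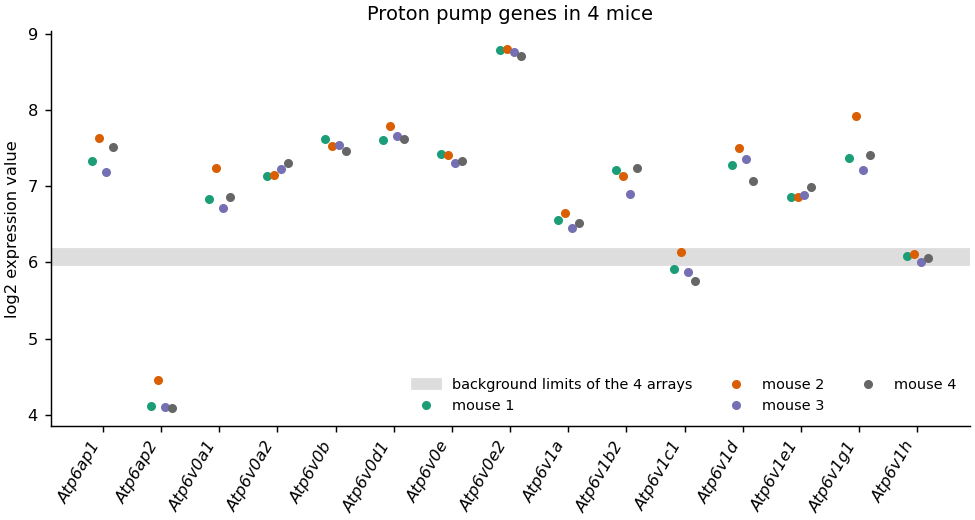
Each point is the log2 expression value of a proton pump gene in a mouse, by the gene's probe set of highest mean, and the grey band spans the background limits of the 4 arrays (5.97 to 6.17). Of the 15 genes 12 lie above the band in every mouse, and mouse 2 stands apart for Atp6v1g1 and Atp6v0a1. Heights of different genes are not comparable.

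Among the Arf GTPases, Arf1, which recruits the COPI coat and clathrin adaptors to the Golgi, had 10.68, 10.73, 10.61 and 10.79. Arf4, a Golgi relative, had 8.51, 9.05, 8.98 and 8.69, lowest in mouse 1 (SD 0.25, n = 4). Arf3 had 6.95, 6.78, 7.07 and 6.84, and Arf5 had 7.87, 8.03, 8.12 and 7.92. The other members, Arf2 and Arf6, were below the range.

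Of the clathrin chains and adaptor subunits 10 of 21 genes gave signal. Cltc, the clathrin heavy chain, had 8.37, 8.08, 8.61 and 8.04, so that mice 1 and 3 lay above mice 2 and 4. Clta, a light chain, had 6.68, 6.78, 6.57 and 6.54. The AP-1 complex, which works at the Golgi and endosomes, had 3 of 6 subunit genes above the range, including Ap1b1 at 7.94, 7.89, 7.97 and 7.96 and Ap1s1 at 8.28, 8.18, 8.08 and 7.94. The AP-2 complex of the plasma membrane had 2 of 5, and AP-3, which sorts to lysosomes and related organelles, had 3 of 5, with Ap3b1 at 7.97, 8.07, 7.99 and 8.07 and Ap3s1 at 6.95, 7.28, 7.19 and 7.14. The neuronal clathrin assembly gene Snap91, named after its values were seen, was below the limit on every array with a mean of 2.32.

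The Rab GTPases were the most numerous role, and 18 of the 33 Rab GTPase genes proper were above the range. Those of the early secretory pathway included Rab1a, which acts between the endoplasmic reticulum and the Golgi, at 6.82, 7.24, 6.88 and 6.98, and Rab2a, which acts at the same step, at 7.11, 7.99, 7.06 and 7.21. Mouse 2 was highest for both. Rab6a, a Golgi Rab, had 6.79, 6.72, 6.86 and 6.95. Rab14, which works between Golgi and endosomes, had 7.73, 8.05, 7.44 and 7.80.

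Rabs of secretory granules also gave signal. Rab3d, known from the granules of exocrine glands, had 7.94, 8.18, 7.85 and 8.06. Rab3a, its relative best known from synaptic vesicles, had 7.22, 7.15, 7.31 and 6.99, and Rab8a, which serves transport to the surface, had 7.05, 7.26, 7.30 and 7.01. The granule Rabs Rab27a and Rab27b were not analysed here. Of nerve and neuroendocrine markers, 5 of 23 measured genes were above the range (Tubb3, Npy, Sox10, Mag and Ncam1). The summed values of all 23, most of them not above the range, ran from 103.6 to 105.3 over the mice. The synaptic genes Snap25, Syt1 and Syp had means of 2.44, 2.31 and 3.46.

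Endosomal Rabs were represented by Rab5a and Rab5c of the early endosome, at 6.24, 6.73, 6.49 and 6.27 and at 6.57, 6.54, 6.76 and 6.67. Rab11a of the recycling endosome had 8.33, 8.81, 8.51 and 8.57, highest in mouse 2, and its epithelial relative Rab25 had 6.77, 6.71, 6.72 and 6.67. Rab7 of the late endosome had 7.22, 7.41, 7.10 and 7.02. Rab20 had 6.62, 6.62, 6.70 and 6.73. Of the 4 Rab partner proteins only Rab5if was above the range, at 8.10, 8.34, 8.27 and 8.04.

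Among the Vps and exocyst genes 10 of 23 gave signal. Retromer, the coat that returns cargo from endosomes, had Vps35 at 7.40, 7.97, 7.45 and 7.63 and Vps26a at 6.27, 6.58, 6.59 and 6.31, and its other measured genes, Vps26b and Vps29, passed the limit on 2 arrays each. The GARP tether of the Golgi had 3 of 4 subunit genes above the range and the ESCRT machinery, which forms multivesicular bodies, 3 of 6. Vps37b of the latter had 6.22, 6.36, 6.28 and 6.26. Vps26c, a retromer-like subunit, had 6.4, 6.51, 6.38 and 6.23. All 3 exocyst genes, Exoc4, Exoc7 and Exoc8, were below the limit on every array, as were Vps16 and Vps41 of the lysosomal HOPS tether. Members below the range in this paragraph were named after their values were seen.

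The SNAREs gave signal for 2 of 7 Vamps, 4 of 10 syntaxins and 0 of 3 members of the Snap25 family. Vamp8, the vesicle SNARE of exocrine granules, had 8.92, 9.05, 8.92 and 8.99, and its other probe set was also above the range at 7.36, 7.31, 7.23 and 7.47. Both are of a type designed on shared family sequence (suffix _f_at), so related transcripts may add to them. Vamp2, also a vesicle SNARE of regulated secretion, had 7.10, 7.36, 7.10 and 7.08. Vamp3, its relative on recycling endosomes, was below the limit everywhere with 4.0, 4.98, 4.42 and 4.12.

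Of the target SNAREs, Stx4a of the basolateral membrane had 6.35, 6.4, 6.37 and 6.51, Stx2 of the plasma membrane had 7.20, 7.12, 7.29 and 7.14, and the Golgi syntaxin Stx5a had 7.73, 7.79, 7.84 and 7.75. The endosomal Stx12 had 7.22, 7.28, 7.07 and 7.36. Stx3, the apical syntaxin of polarised epithelia, was not above the range by any of its 3 probe sets, the brightest at 4.94, 4.95, 4.68 and 4.78. The neuronal Stx1a had 4.85, 4.43, 4.60 and 4.74. Snap23, the widely expressed partner of these syntaxins, had 5.03, 5.44, 5.02 and 5.06, below the limit in every mouse.

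Among the SNARE partners, Stxbp2, the Munc18 protein that pairs with apical syntaxins in epithelia, had 7.20, 7.05, 7.03 and 6.97. Napa (alpha-SNAP), which loads the disassembly ATPase onto used SNARE complexes, had 8.28, 8.46, 8.4 and 8.36, and that ATPase, Nsf, had 6.06, 6.01, 6.22 and 6.08 and passed the limit on 2 arrays. Of 12 synaptotagmins, a family that includes calcium sensors of vesicle release, 2 were above the range. They were Syt3 at 6.94, 6.68, 6.60 and 7.06 and Syt5 at 6.59, 6.24, 6.41 and 6.36. Syt1, the calcium sensor of synaptic release, had 2.35, 2.39, 2.30 and 2.19.

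None of the 187 traffic probe sets was called variable between the mice. The test set each probe set's variance over the 4 arrays against limma's prior variance at like signal, with Benjamini-Hochberg adjustment over 12422 probe sets. It called 0.282% of all probe sets at an adjusted p threshold of 0.05. The lowest adjusted p of a member was 0.297 (limma), for Rab2a. At an unadjusted p under 0.05 stood 14 of 187 traffic probe sets (7.49%), against 5.44% of all. The median SD of the traffic probe sets was 0.12 and that of all probe sets 0.11, and 0 members had a range over 1 log2 unit.

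**Figure D3:**
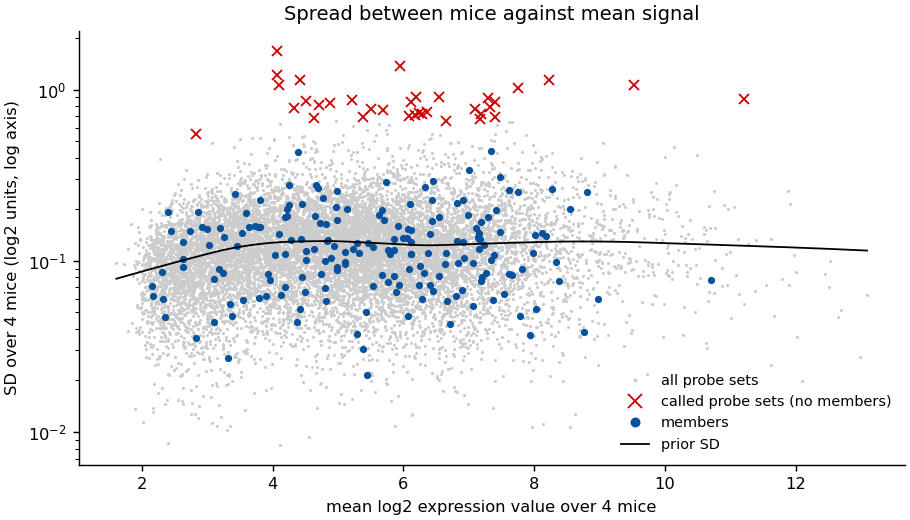
Each point is a probe set, with its mean log2 expression value on the horizontal axis and its SD over 4 mice on a log vertical axis. The 187 traffic probe sets (blue) lie within the cloud of all 12422 (grey) with SDs from 0.02 to 0.44, below the 35 called probe sets (red crosses). The line is the prior SD.

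The 3 named genes of largest SD, Rab2a, Vamp3 and Atp6v1g1, had their highest value in mouse 2. Rab2a was higher there than in the other mice, at 7.99 against 7.11, 7.06 and 7.21 (SD 0.44, unadjusted p = 0.0025, adjusted p = 0.297, limma). Vamp3 had an SD of 0.43 (adjusted p = 0.311, limma), but all its values were under the background limit, so its size is uncertain. Atp6v1g1 had an SD of 0.31 (adjusted p = 0.733, limma) and Vps35 one of 0.26 (adjusted p = 0.906, limma). Of the 14 traffic probe sets with an unadjusted p under 0.05, 10 were highest in mouse 2. The share of mouse 2 among all probe sets at that p was not counted, so the 10 have no background beside them. Above the background range were 5 of the 14 (Cltc, Rab2a, Vps35, Atp6v1g1 and a probe set of Rab7).

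The highest mouse stood at least 0.25 above the next in 7 of the 65 traffic genes above the range, a margin chosen after the values were seen. These were Rab1a, Rab2a, Rab14, Vps35, Vamp2, Atp6v0a1 and Atp6v1g1, and in all 7 that mouse was mouse 2. They make 10.8% of the 65, and 5.95% of all genes above the range had mouse 2 highest by that margin. How many of all genes had another mouse highest by that margin was not counted. A range over 0.5 was seen in 7 of the 65 (10.8%) and in 9.24% of all genes above the range. Cltc and Arf4 belong to these 7, and Cltc was highest in mouse 3.

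**Figure D4:**
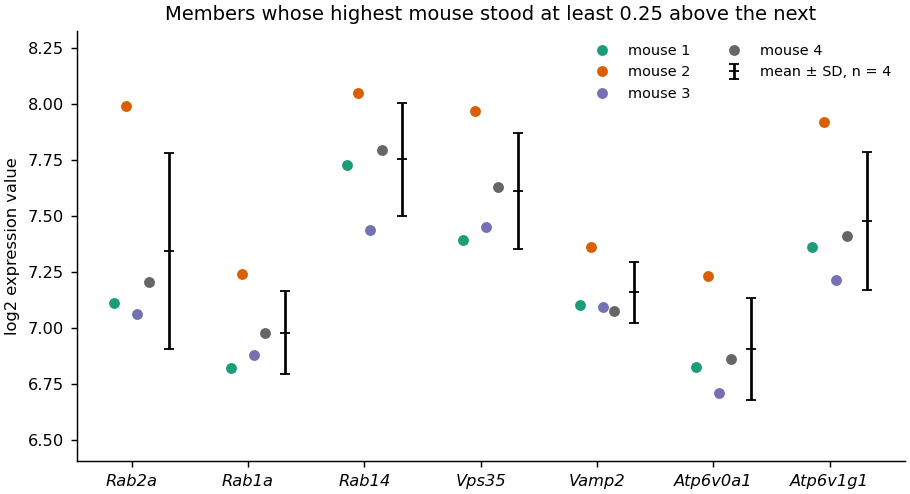
Points are the log2 expression values of the 4 mice for the 7 genes whose highest mouse stood at least 0.25 above the next, with the mean and SD (n = 4) in black. Mouse 2 (orange) is on top in each, from 7.23 for Atp6v0a1 to 8.05 for Rab14. The axis does not start at 0.

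Counted over all 65 traffic genes above the range, 30 (46.2%) were highest in mouse 2, where 29.7% of all genes above the range were, 8 (12.3%) in mouse 1, against 23.4%, 15 (23.1%) in mouse 3, against 26.7%, and 12 (18.5%) in mouse 4, against 20.2%. The lowest mouse was mouse 1 for 21 of the 65 (32.3%), against 23.9% of all, mouse 2 for 11 (16.9%), against 31.6%, mouse 3 for 17 (26.2%), against 23.3%, and mouse 4 for 16 (24.6%), against 21.2%. The median deviation of the 65 genes from their own 4-mouse means was small, at -0.046, 0.051, -0.015 and -0.011 in mice 1 to 4, beside -0.0035, -0.0061, 0.0041 and -0.0051 over all genes above the range. Over all genes above the range, mouse 2 was both the most frequent highest mouse and the most frequent lowest mouse. These are descriptions of 4 samples, and no test was made over the list.

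By role, the Rab GTPases had the highest median deviation in mouse 2 among roles with more than 1 gene above the range, at 0.14, with -0.055, -0.057 and 0.012 in mice 1, 3 and 4, and 10 of their 18 genes above the range were highest there. With dim genes kept, the Rab GTPase median in mouse 2 was 0.048. The proton pump had 0.075 in mouse 2 against -0.033, -0.036 and -0.044, with 7 of 12 genes highest there and 0 of 12 in mouse 3. Vps and exocyst genes had 0.066 in mouse 2 and SNAREs 0.030. For clathrin and its adaptors the medians ran only from -0.028 to 0.019. The Arf genes were highest in mouse 3, at 0.15, and the SNARE partners in mouse 1, at 0.13, each over 4 genes. With dim genes kept, the SNARE partner median in mouse 1 was 0.011.

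**Figure D5:**
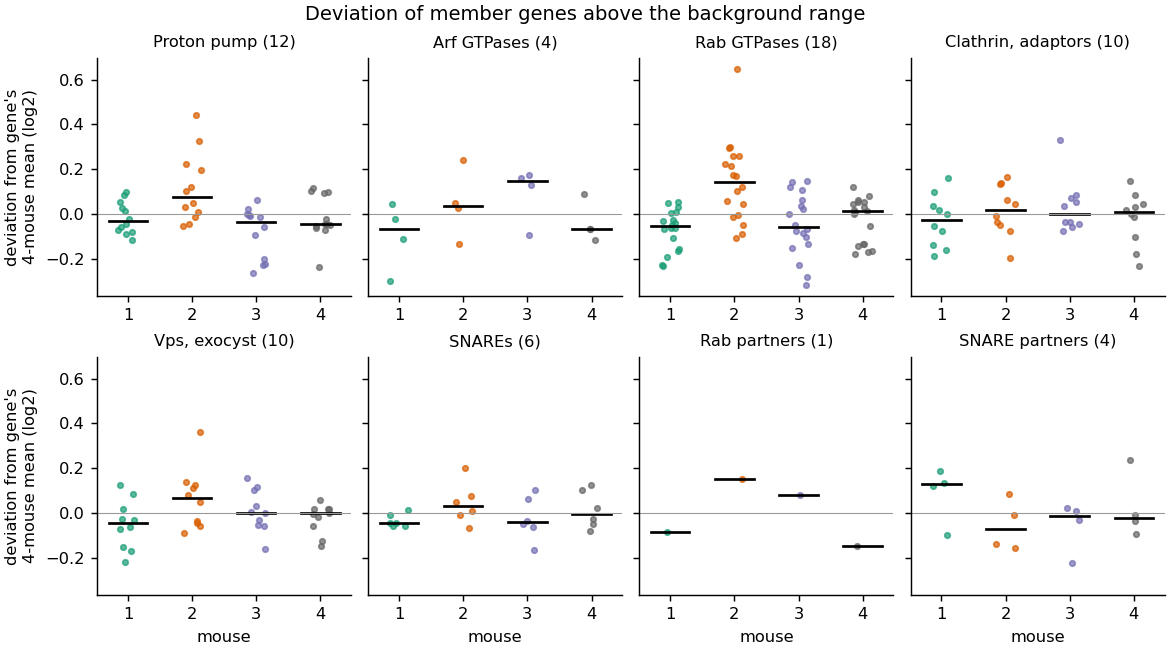
Points are genes above the background range, plotted as the deviation of each mouse's log2 value from the gene's 4-mouse mean, with a black bar at the median and the number of genes in brackets. The bar of mouse 2 is at 0.14 for the Rab GTPases and 0.075 for the proton pump, while that of the SNARE partners is highest in mouse 1, at 0.13.

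Cell type markers also deviated between the mice. Luminal epithelial genes above the range had a median deviation of 0.074 in mouse 2 against -0.048, -0.027 and -0.055 in mice 1, 3 and 4, and 7 of 14 were highest in mouse 2. The summed values of all 20 ran from 163.5 to 166.4, highest in mouse 2. Smooth muscle genes had 0.32, -0.17, -0.024 and -0.15, with 9 of 10 highest in mouse 1, and the summed values of all 13 ran from 98.5 in mouse 2 to 103.1 in mouse 1. Among B and plasma cell genes, 3 of 10 were above the range, with median deviations of -0.25, 0.64, 0.45 and -0.98 in mice 1 to 4, highest in mouse 2, and 4 of the list's 31 probe sets were called. The immunoglobulin heavy chain gene Ighm had 8.51, 9.14, 8.67 and 6.57 (adjusted p = 0.00733, limma), and Igha had 7.005, 7.96, 7.98 and 6.34 (adjusted p = 0.0242, limma). Summed over the 10 genes the values ran from 56.5 in mouse 4 to 61.9 in mice 2 and 3. Of 4 red cell genes only the globin gene Hba-a1 was above the range, with deviations of -0.25, 0.39, -0.42 and 0.27, again highest in mouse 2, and the 4 genes' sums ran from 21.4 in mouse 3 to 23.6 in mouse 2. Macrophage and dendritic cell genes, 7 of 20 above the range, had medians of -0.11, 0.082, 0.25 and -0.25 and sums from 116.9 in mouse 4 to 123.8 in mouse 3. The 1 of 9 mast cell genes above the range had 0.16, -0.21, 0.15 and -0.093, with sums from 37.9 in mouse 2 to 39.8 in mouse 3. As a sign of RNA quality, the 3' control probe set of beta-actin exceeded its 5' one by 0.82 in mouse 2 and by 1.08, 1.02 and 0.98 in mice 1, 3 and 4, and the same difference for Gapdh ran from -0.15 to -0.12. The other-organ genes of the background list, 9 of 97 above the range, had medians of 0.027, -0.098, 0.051 and 0.052 in mice 1 to 4. The summed values of all 97 ran from 416.5 in mouse 2 to 429.3 in mouse 4. The part of tissue makeup, RNA quality or differences across the whole array in the traffic genes' deviations was not tested.

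Where several probe sets read a traffic gene, the highest mouse of each was compared. Of 39 such genes, 3 (Rab7, Vamp8 and Vps26c) had at least 2 probe sets above the range, 22 had 1, and 14 had none. All probe sets of a gene shared the highest mouse in 7 of 39, and both the highest and the lowest mouse in 1. The same share over all genes on the array was not counted, so the 7 have no background beside them. For Rab7 both probe sets were highest in mouse 2, the second at 7.02, 7.40, 6.58 and 7.04 (SD 0.34, adjusted p = 0.605, limma). For Vamp8 one was highest in mouse 2 and the other in mouse 4. Rab2a, Rab1a, Vps35, Vamp2 and Atp6v0a1 each had a further probe set, and Rab14 had 2, all below the limit, so their differences rest on 1 probe set.

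The other genes of the pathway, from a list of coats, cargo receptors, Rab regulators and further SNAREs, were counted in the same way. Of 81 measured genes 49 (60.5%) were above the range, against 29.5% of all genes on the array. Of the 49, 18 (36.7%) were highest in mouse 2, against 29.7% of all genes above the range, and 17 (34.7%) in mouse 3, against 26.7%. Mouse 4 was highest for 10 (20.4%), against 20.2%, and mouse 1 for 4 (8.16%), against 23.4%. The list held 1 called probe set of 117, for the COPI subunit gene Arcn1, at 7.98, 6.74, 8.01 and 6.85 (adjusted p = 0.0413, limma), against 0.282% of all probe sets. The call ended in 5 of 5 other settings of the fit or scaling (adjusted p from 0.0504 to 0.233, limma) and without mouse 2 (0.0838) or mouse 4 (0.0915). The 2 other Arcn1 probe sets had means of 3.72 and 4.36 and were not called (adjusted p = 0.908 and 0.993, limma). Sec22b, a SNARE between the endoplasmic reticulum and the Golgi, had 6.35, 7.43, 6.51 and 7.03 (adjusted p = 0.178, limma). Arfgap3 had 8.56, 9.21, 8.55 and 8.76, and Arl1, an Arf-like Golgi GTPase, had 6.76, 7.35, 6.86 and 6.88. Kdelr2, by contrast, was highest in mouse 1, at 7.58, 7.28, 7.41 and 6.91 (adjusted p = 0.796, limma). The genes in this paragraph were named after their values were seen.

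Genes of lysosomes and the proton pump are known to share a promoter element that contains the letters CACGTG, bound by transcription factors of the TFEB family. The 250 bases upstream of the start site were searched for CACGTG, for the longer TCACGTGA and for GTCACGTGAC, each of which reads the same on both strands and contains the one before. RefSeq promoters (GRCm38.p6) matched 116 of the 142 traffic genes, with 142 start sites. CACGTG stood in 22 of these 142 windows (15.5%), in 8.22% of 8408 windows of all genes named on the array and in 6.02% of 32851 windows of all genes. TCACGTGA stood in 7 windows (4.93%), against 1.36% and 0.785%, and GTCACGTGAC in 5 (3.52%), against 0.50% and 0.240%. The windows overlap between start sites of a gene, and no test was made.

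The 6 genes with TCACGTGA were Atp6v1a, Rab5a, Rab21, Stx6, Vps16 and Vps26a. The 3 of them above the background range are shown because they carry the longest matches or belong to the pump, with the match in capitals and the rest in lower case, 5′ to 3′ on the gene's strand. The windows are chr17:53478984-53479233 (plus strand) for Rab5a, chr10:62486806-62487055 (minus strand, the outer of its start sites) for Vps26a and chr16:44139260-44139509 (minus strand) for Atp6v1a, all in GRCm38.p6.
Rab5a: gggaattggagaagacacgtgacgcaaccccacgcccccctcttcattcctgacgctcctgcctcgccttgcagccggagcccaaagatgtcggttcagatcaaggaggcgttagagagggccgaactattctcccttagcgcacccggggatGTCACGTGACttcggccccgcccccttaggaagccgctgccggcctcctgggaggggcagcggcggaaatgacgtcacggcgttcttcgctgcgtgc
Vps26a: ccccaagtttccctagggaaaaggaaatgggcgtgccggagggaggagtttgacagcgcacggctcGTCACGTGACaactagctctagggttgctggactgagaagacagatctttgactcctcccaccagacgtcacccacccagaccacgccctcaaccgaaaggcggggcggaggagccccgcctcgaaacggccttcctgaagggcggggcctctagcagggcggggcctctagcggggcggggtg
Atp6v1a: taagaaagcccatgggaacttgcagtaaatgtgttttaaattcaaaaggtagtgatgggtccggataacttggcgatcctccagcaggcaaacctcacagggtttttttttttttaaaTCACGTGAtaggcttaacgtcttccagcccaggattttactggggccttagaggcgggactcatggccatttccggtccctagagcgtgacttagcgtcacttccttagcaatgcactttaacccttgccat
The match ends 87 bases before the start site in Rab5a, 174 in Vps26a and 124 in Atp6v1a. In the mice, Rab5a and Atp6v1a were highest in mouse 2 (6.73 and 6.64), whereas Vps26a had its highest value in mouse 3, at 6.59 beside 6.58 in mouse 2. The other Atp6v1a probe sets, below the limit on every array, were lowest in mouse 2 (5.47 and 5.75). Vps16, Stx6 and Rab21, below the range, were highest in mouse 2, mouse 3 and mouse 4. None of the 6 genes was called variable between the mice, and a link of the element to these values was not tested.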

How the data were processed

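The authors deposited 1 log2 value for each probe set and array, computed by RMA according to the submitters' processing notes. The RMA version, and which arrays were normalized jointly, are unstated, and the log2 scale was read from the values. RMA sets arrays to a common distribution, so a shift of most genes at once would not show. Of 12488 probe sets 66 controls were left out of tests. Gene symbols came from the platform annotation (10833 probe sets with 1 gene, 396 with several, 1193 with none), and all 142 traffic genes matched RefSeq by gene ID. The probe set with the highest mean stood for its gene.

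The variance test used a robust, trended prior of 8.06 degrees of freedom (limma 3.58.1, R 4.3.3). It was run on simulated data drawn from that same prior, which cannot show whether the prior suits these arrays. It describes these 4 arrays, whose number limits the precision. Tables and figures were made in Python 3.11.15. The rule for named genes took 26 of 31 textbook members that were measured and, in each of 8 roles, the members above the range with the 3 largest and 2 smallest SDs, 53 genes in all. Genes outside it are said to be so, or are named only in a list. Members and lists were chosen with earlier results of these data known. The alternatives covered the prior fit, a filter on dim probe sets, the scaling of arrays, the background limit, the choice of probe set and leaving out each mouse. No array was left out of the main results.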

Additional observations from a re-analysis of the deposited data

Results flagged for a closer look

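In 3 of the 53 named genes, mouse 2 lay far above the other mice by Dixon's criterion for 4 samples. The criterion is relative to the gene's own spread, so the step itself can be small. Rab2a had 7.99 there, Snap23 had 5.44 and Vamp2 had 7.36, the last only 0.26 above the next mouse (adjusted p of its variance = 0.993, limma). Over all traffic probe sets, 8 of 187 had a mouse far above the others, where 2.77% of all 12422 probe sets did, and 4 had a mouse far below. Together they make 6.42%, against 5.09% of all 12422 probe sets, and chance gives about 1 in 20. All values of Snap23 were below the background limit.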

How the results depend on the processing

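The count of called traffic probe sets was 0 in all 9 alternatives by limma, with 4 to 15 at an unadjusted p under 0.05 and a lowest adjusted p from 0.148 to 0.783. Of 53 named genes none was called in any of them. With the filter on dim probe sets the test called 0 of 3343 probe sets of any gene, so the traffic count of 0 is not particular there. For the other genes of the pathway the 1 called probe set, of Arcn1, became 0 in the 5 alternatives of the fit or scaling, and leaving out a mouse gave 0 to 1, alternatives chosen after seeing the data. The number of traffic genes above the background range was 90 with the 75th percentile, 54 with the 95th and 95 with each array's median as limit, and leaving out a mouse gave 65 to 67. Members highest in mouse 2, a count chosen after seeing the data, were 32 with arrays shifted to the same median (49.2%, against 35.03% of all genes above the range) and 26 with quantile normalization (40.0%, against 23.8%), and 57 of 142 with dim genes kept (40.1%, against 22.7%). Role medians changed by more than their own spread over the mice in 11 of 144 cases. With dim genes kept these were -0.13 for Rab partners in mouse 3, -0.055 for adaptors, 0.0021 for SNAREs and 0.011 for SNARE partners in mouse 1, and 0.048 for Rab GTPases in mouse 2. With the mean, adaptors had 0.033 in mouse 3 and -0.020 in mouse 4, and with arrays shifted to the same median 0.040 in mouse 2. With quantile normalization adaptors had 0.0021, -0.026 and 0.029 in mice 1, 2 and 4. The cause was not tested. No paired analysis was possible because the series has 1 group. Without mouse 2 the lowest adjusted p was 0.783 and 6 traffic probe sets had an unadjusted p under 0.05.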
